A study of Mus musculus with 4 samples.

Results

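Liver RNA of a microsomic and a control mouse group, both labelled female, was compared gene by gene on 2 arrays, MF for microsomic and CF for control. The array names 36161 genes, of which 35696 kept a probe free of the 2 spot outlier flags on both arrays. A gene counted as measured if the scanner software set the probe with the strongest mean signal well above background for MF and for CF alike, which held for 22062 genes. No measured difference was used to choose them. The deposited series holds 4 arrays, the other 2 being MM and CM for microsomic and control males, and 20753 genes were measured on both of those. Microsomic mice are animals of low body weight for their sex in the colony, and controls are littermates whose weight lay near the colony mean. No allele or agent is named for any group, and the methods name a standard diet, with a high-fat diet for mice past weaning. The labels of MF and CF give whole liver of C57BL/6J females at embryonic day 20, whereas the methods of the study describe newborn C57BL/6 N mice and 3 replicate experiments. Neither source says whether an array holds RNA of 1 liver or of a pool. With 1 array on each side there is no spread between livers, so no test was made, no p-value is given and each difference describes these 2 RNA preparations.

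The liver around birth makes most plasma proteins, forms blood, and takes over the control of glucose, fat and nitrogen once the placental supply ends. Cholesterol is built from acetyl-CoA by a fixed chain of enzymes whose genes are switched on by SREBP2 when membrane cholesterol is low. SREBP1 drives the genes of fatty acid synthesis, and PPAR alpha drives those that burn fatty acids during fasting and suckling. The intestine lies beside the liver in the abdomen and the heart lies across the diaphragm, and RNA of either would appear on an array of total liver RNA. In bulk RNA, fewer cells of a type and less RNA per cell cannot be told apart.

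Levels are given as the log2 signal, which is the log2 of the processed spot signal minus the log2 of the 75th percentile of its array, so that 0 is the 75th percentile. A difference is the log2 signal on MF minus that on CF, and it was counted when it passed 1.5-fold. Levels of different genes come from different probes and were not set against each other. The 75th percentile was 893 on MF and 676 on CF, and 63.7% and 57.7% of the spots were well above background. The lowest log2 signal of a probe well above background was -6.03 on MF and -5.48 on CF. Folds that rest on a level near these are imprecise. Of the 22062 measured genes, 8270 (37.5%) passed that fold. On MF 3659 (16.6%) were higher and 4611 (20.9%) were lower. The median difference over all measured genes was -0.11 with an SD across genes of 0.86, and the log2 signals of the arrays had a Pearson r of 0.967 across genes, which are not independent replicates. Probes printed at 8 or more spots (267 probes) had a median SD of the difference over spots of 0.302, which covers spotting and scanning but not the spread between livers. A further 2810 genes were well above background on MF alone (10.9% of the 25843 genes above it on at least 1 array) and 793 on CF alone (3.07%).

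The liver and sex labels were checked first. Albumin (Alb) had a log2 signal of 10.62 on MF and 10.40 on CF, and transthyretin (Ttr) 9.37 and 9.01. Both spots were saturated on MF, as were the brightest spots of Trf, Afp, Apoa2, H19 and 4 globin genes, so their values on MF are lower bounds. Xist, expressed from the inactive X chromosome, read -1.30 on MF and 0.11 on CF, against -7.28 on MM and -5.39 on CM. The Y-linked genes Ddx3y, Eif2s3y, Kdm5d and Uty were not well above background on MF or CF. Ddx3y, Eif2s3y and Uty were above it on MM and CM. Kdm5d was above it on no array, so it says nothing about the sex label. Genes of another organ were also seen on each array, intestine on MF and heart on CF.

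**Figure D1:**
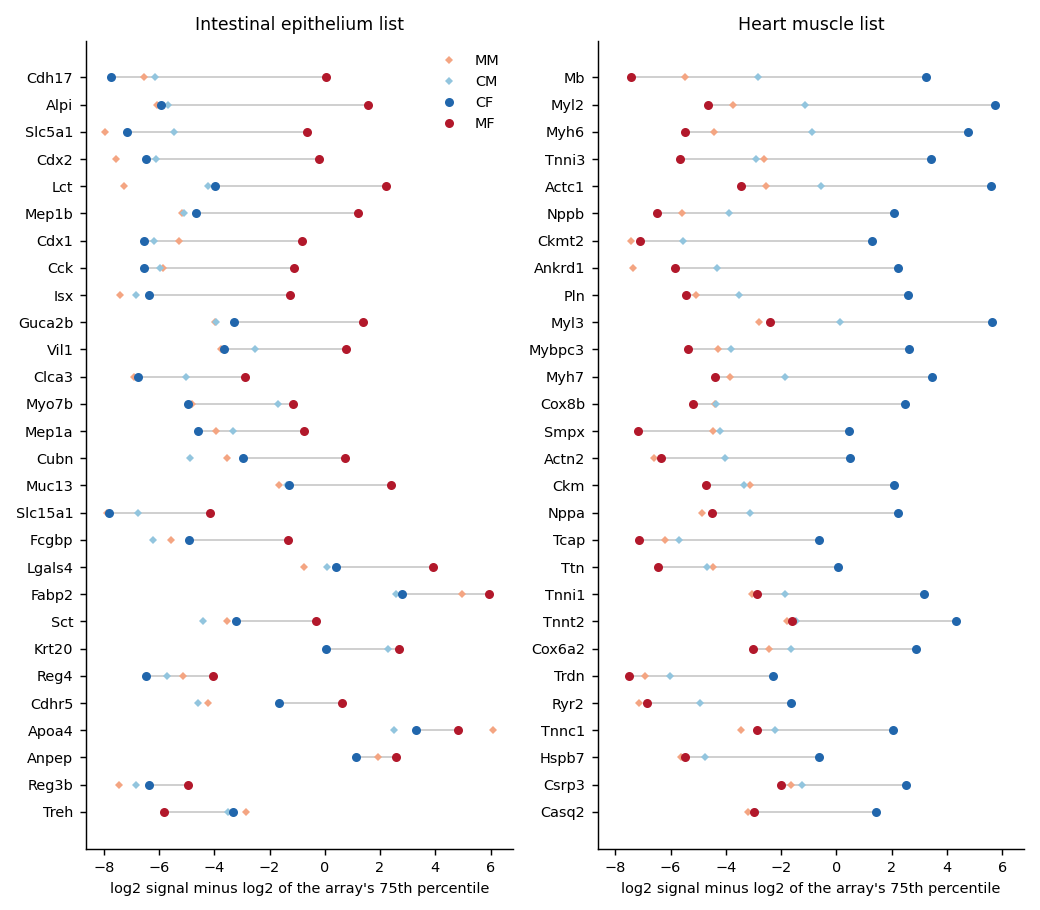
Log2 signal (horizontal axis, relative to the 75th percentile of the array) of the 28 members of the intestine list and the 28 of the heart list with the largest differences, apart from members not reported here, 1 row per gene. Circles are MF and CF, joined by a line, and diamonds are MM and CM; points are drawn at the measured level also where a gene is not above background. All the intestinal genes drawn except Treh are higher on MF, and all the heart genes drawn are higher on CF, Myl2 at -4.63 and 5.76.

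Genes of the intestinal epithelium were higher on MF. Of 47 list members with a probe, 29 were measured on both arrays, and 21 of these were higher and 0 lower on MF, with a median difference of 1.29 against -0.11 over all genes. Another 15 members were well above background on MF alone and 1, the trehalase gene Treh, on CF alone. Over all genes seen on at least 1 of the arrays, 10.9% were on MF alone and 3.07% on CF alone. Lactase (Lct), which splits milk sugar at the brush border, had a log2 signal of 2.20 on MF and -3.98 on CF, 72.6-fold higher. Alkaline phosphatase of the brush border (Alpi) read 1.56 on MF and was below background on CF, at least 131-fold lower there. The homeobox genes Cdx1 and Cdx2, which specify intestinal identity, were well above background on MF at -0.83 and -0.20 and not on CF, at least 25.2-fold and 38.9-fold higher on MF. Of the male arrays, Cdx1 was above background on MM alone and Cdx2 on neither. Liver-intestine cadherin (Cdh17) read 0.03 on MF and was below background on CF, at least 45.6-fold higher on MF. Villin (Vil1), a bundler of microvillar actin, was 20.9-fold higher, at 0.76 and -3.63. The gut peptide gene Guca2b was 25.6-fold higher, at 1.40 and -3.28. All 3 probes of Lgals4, a lectin of enterocytes, were higher on MF, the brightest at 3.93 against 0.40. Fabp2, the intestinal fatty acid binding protein, read 5.95 on MF and 2.81 on CF, but also 4.98 on MM and 2.59 on CM. The sucrase gene Sis read -4.62 on MF and -4.56 on CF and was above background on MF only by the flag, and the goblet cell mucin Muc2 was below background on both arrays.

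On the male arrays most of these genes were lower than on MF. Vil1 read -3.77 on MM and -2.52 on CM, Lct -7.26 and -4.22, and the median difference of the list between MM and CM was 0.26. Summed over the list on the linear scale, in units of the 75th percentile, the level was 508 on MF, 317 on CF, 476 on MM and 297 on CM, a sum that holds Apob, Apoa4, Spink3 and other genes with a strong signal in all 4 livers. Enteroendocrine peptides were among the genes of MF. Cholecystokinin (Cck) was above background on MF alone, at -1.12 and at least 20.5-fold higher, and secretin (Sct) was 7.54-fold higher at -0.30 against -3.22. Pancreatic genes were mixed. Of 25 list members, 16 were measured, 5 higher and 6 lower on MF with a median of -0.05. Another 6, among them the trypsinogens Prss1 and Try5, were seen on MF alone and 0 on CF alone, against 10.9% and 3.07% of all genes. Both trypsinogens were also above background on CM. Chymotrypsinogen (Ctrb1) was 7.07-fold higher on MF by a probe rich in C and T. Of 7 measured stomach genes, 2 were higher and 1 lower. Cym, an aspartic protease of the newborn stomach, was 7.84-fold higher at 2.50 against -0.47.

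Genes of heart muscle were higher on CF, and by more. Of 44 list members with a probe, 25 were measured on both arrays, and 23 of these were lower and 0 higher on MF, with a median difference of -4.52. Another 14 were above background on CF alone and 1, Tbx20, on MF alone, against 3.07% and 10.9% of all genes seen on at least 1 array. Ventricular myosin light chain 2 (Myl2) had a log2 signal of -4.63 on MF and 5.76 on CF, the largest difference of any measured gene, 1343-fold higher on CF. Cardiac actin (Actc1) was 521-fold higher on CF at 5.59 against -3.44, and the ventricular light chain Myl3 262-fold higher at 5.64 against -2.39. Cardiac myosin binding protein C (Mybpc3) was 256-fold higher on CF, the myosin heavy chain Myh7 229-fold and the atrial peptide Nppa 106-fold. Troponin I (Tnni3), phospholamban (Pln), myoglobin (Mb) and the stress-inducible factor Ankrd1 were below background on MF, and were higher on CF by at least 542-fold, 264-fold, 625-fold and 274-fold. The atrial light chain Myl7 did not differ by more than 1.5-fold, at -1.97 on MF and -2.05 on CF. Nkx2-5, a cardiac transcription factor, was 5.58-fold higher on CF at -1.63 against -4.11.

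The summed level of the heart list was 7.73 on MF, 320 on CF, 7.31 on MM and 13.8 on CM, so CF stood apart from the other 3 arrays. On CM several of these genes lay above MM, Myl3 at 0.13 against -2.79 and Actc1 at -0.56 against -2.55, and the median difference of the list between MM and CM was -0.78. Skeletal muscle genes did not follow as a group, with 5 of 14 measured members lower and 0 higher on MF and a median of -0.41. Creatine kinase (Ckm), which heart and skeletal muscle share, was 112-fold higher on CF, and the perinatal myosin Myh8 19.8-fold higher at -0.15 against -4.46. Acta1, Tnnt3, Tnnc2 and Mybpc1 differed by less than 1.5-fold by their brightest probes, and Mylpf was below background on both arrays. The other probe of Tnnt3 differed by -1.46, at -5.56 on MF and -4.10 on CF. Of the 50 measured genes lowest on MF relative to CF, 15 were in the heart list. The probes of the cardiac myosins lie together on chromosome 14. The array names no gene for probe A_55_P2093231 (chr14:55589521-55589580, minus strand, mm9), which read -4.14 on MF and 4.79 on CF and lies directly beside the probe of Myh7 (chr14:55589581-55589640), at -4.38 and 3.46. For Myh6 one probe read 4.76 on CF and was not above background on MF, where its level was -5.46. A second probe of Myh6 read -4.91 on MF and was not above background on CF. The levels of this second probe differed by only 0.09 (MF minus CF), so no direction can be read from it.

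Both organ lists hold genes that liver cells or blood cells may also express, and liver lists below hold genes that gut or heart express. Values of such genes are given where they occur, and the part that intestine RNA on MF or heart RNA on CF had in any liver difference was not tested. With 1 array a side, the organ signal and the body weight group cannot be told apart.

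**Figure D2:**
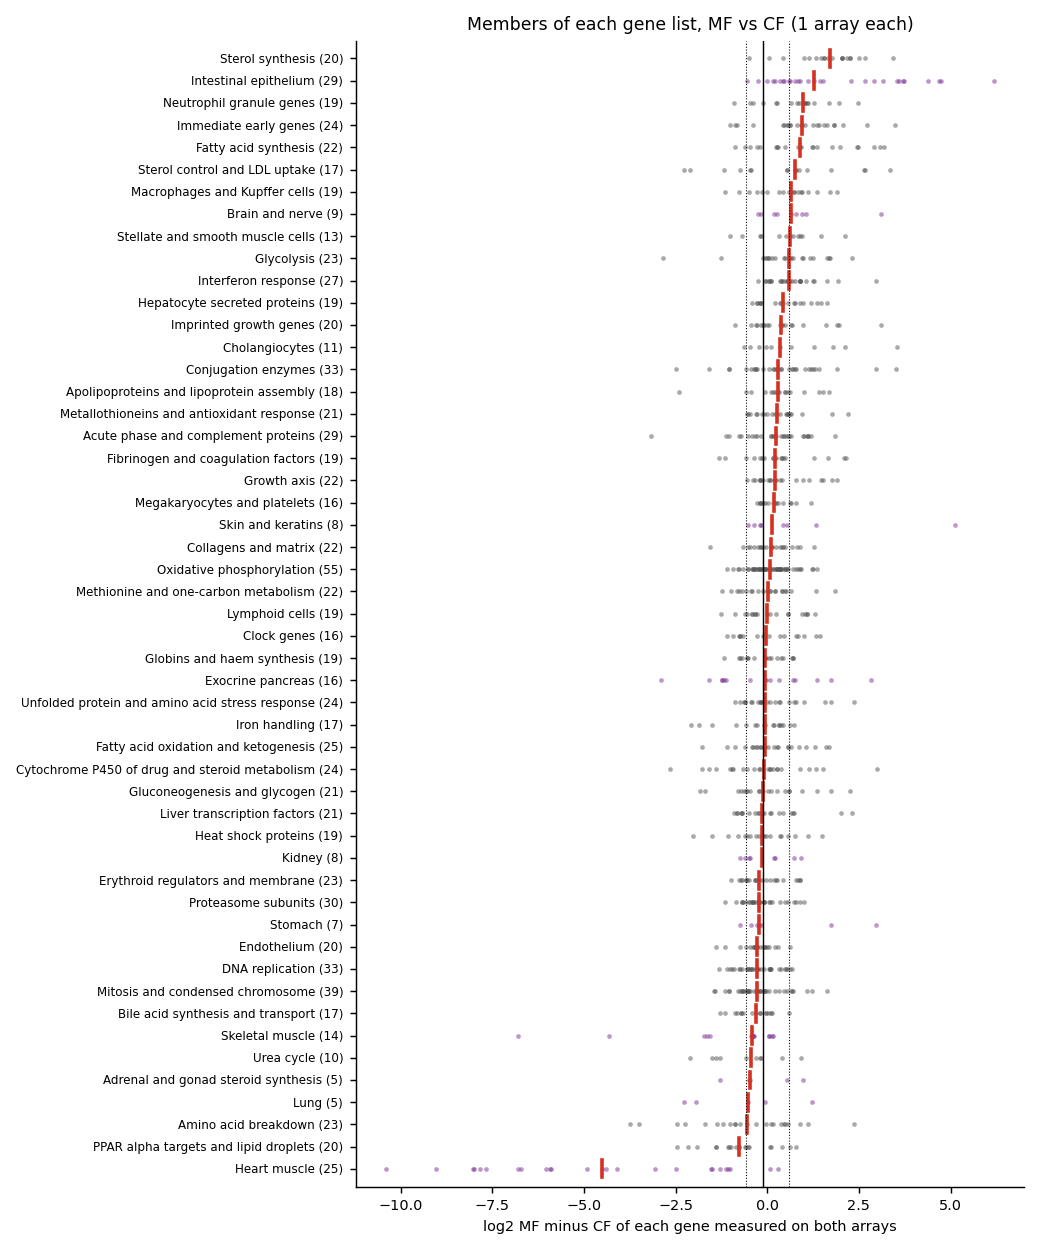
Difference (log2 MF minus CF, horizontal axis) of each measured member of the 51 gene lists, 1 point per gene and 1 row per list, with the number measured in parentheses. Purple points belong to lists of other organs, red bars are list medians, the solid line is the median over all measured genes (-0.11) and the dotted lines are 1.5-fold. Sterol synthesis has the highest median (1.72) and heart muscle the lowest (-4.52).

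Among liver functions, cholesterol synthesis differed most. Of its 20 enzymes, all measured, 17 were higher and 0 lower on MF, with a median difference of 1.72. In the order of the pathway, Acat2, which joins acetyl-CoA units, read 2.37 on MF and 1.22 on CF. Hmgcs1, the cytosolic HMG-CoA synthase, read 5.47 and 3.44, a 4.09-fold difference. The 3 steps that phosphorylate and decarboxylate mevalonate were higher on MF by 2.51-fold for Mvk, 10.8-fold for Pmvk and 5.70-fold for Mvd. Both probes of Pmvk were higher, by 3.44 and 1.62. Idi1, the isomerase of isopentenyl diphosphate, read 4.26 and 2.01, a 4.77-fold difference, and the farnesyl diphosphate synthase Fdps 6.68 and 4.43, a 4.74-fold difference. Squalene synthase (Fdft1) was 4.09-fold higher by its brightest probe and differed by -1.09 by a dim one. Squalene epoxidase (Sqle) read 4.41 and 2.86, and lanosterol synthase (Lss) 3.07 and 0.90.

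The later steps, which turn lanosterol into cholesterol, were less even. Cyp51, the lanosterol demethylase, read 1.26 on MF and -0.77 on CF, a 4.1-fold difference. Sc4mol, the methyl sterol oxidase now named Msmo1, read 4.81 and 2.14, a 6.35-fold difference. Nsdhl was 3.18-fold higher and Sc5d 2.92-fold higher. Dhcr7, which makes cholesterol or its precursor in the last steps, was 3.41-fold higher at 2.27 against 0.50. The reductase Tm7sf2 was 2.01-fold higher by its brightest probe, a direction that flipped to -0.32 under normexp background correction with quantile normalization. Hsd17b7 with a difference of 0.04 and the isomerase Ebp with -0.49 were within 1.5-fold. Between MM and CM the list median was 0.93. Tm7sf2 and Ebp were lower on MM than on CM, with differences of -0.83 and -0.31, whereas Lss differed by 2.26, Sqle by 1.73 and Mvk by 1.52, each more than between MF and CF, as did Cyp51. Hmgcs1 read 5.61 on MM and 4.21 on CM, Idi1 4.99 and 3.14, and Cyp51 1.94 and -1.06. Whether the female and male differences differ was not tested.

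**Figure D3:**
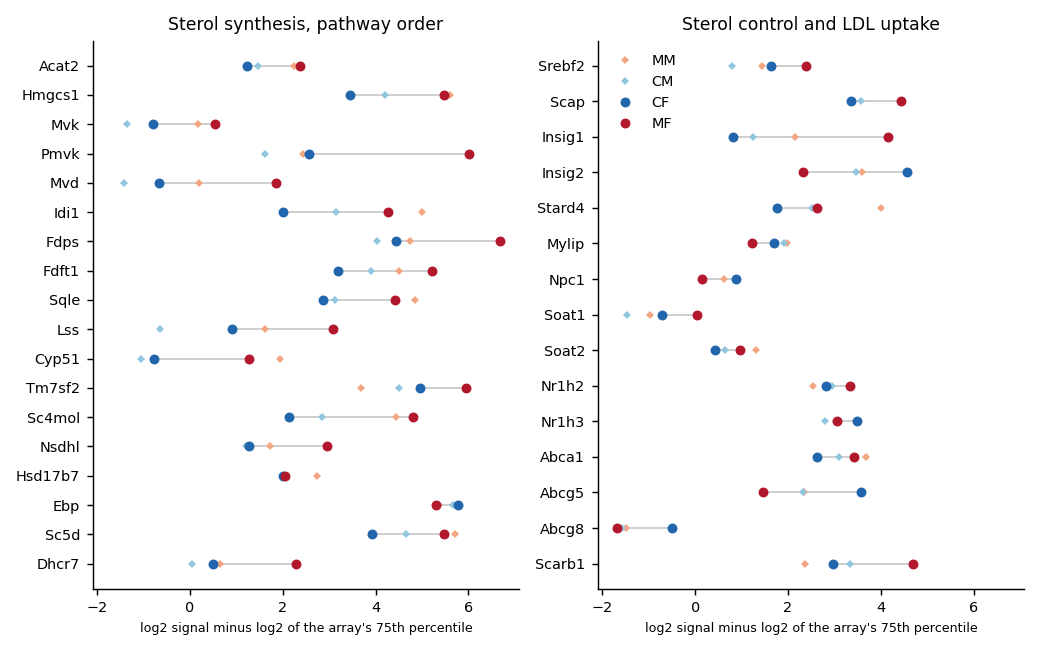
Log2 signal (horizontal axis, relative to the 75th percentile of the array) of 18 enzymes of cholesterol synthesis in pathway order and of 15 measured genes of sterol control. Circles are MF and CF, joined by a line, and diamonds are MM and CM. MF lies above CF for every enzyme drawn except Ebp, with the widest gap at Pmvk (6.01 against 2.57).

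Promoter sequence is shown for 3 genes of lipid synthesis because SREBP acts at promoters beside the factor NF-Y, whose site contains CCAAT. The 200 bases before the start of each gene are from RefSeq, build GRCm38.p6, with CCAAT on either strand (ATTGG when read on the other) and the sterol element TCACNCCAC in capitals. Hmgcs1 lies at chr13:119690151-119690350 on the plus strand, Idi1 at chr13:8885406-8885605 on the plus strand and Fasn at chr11:120824548-120824747 on the minus strand.
Hmgcs1: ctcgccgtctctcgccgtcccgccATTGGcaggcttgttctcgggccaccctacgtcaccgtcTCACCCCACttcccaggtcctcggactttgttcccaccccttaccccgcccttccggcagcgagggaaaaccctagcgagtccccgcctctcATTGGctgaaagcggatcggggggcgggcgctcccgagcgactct
Idi1: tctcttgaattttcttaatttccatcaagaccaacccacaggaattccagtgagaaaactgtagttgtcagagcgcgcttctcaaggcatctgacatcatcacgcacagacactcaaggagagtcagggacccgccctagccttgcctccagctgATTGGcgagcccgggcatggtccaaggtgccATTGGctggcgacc
Fasn: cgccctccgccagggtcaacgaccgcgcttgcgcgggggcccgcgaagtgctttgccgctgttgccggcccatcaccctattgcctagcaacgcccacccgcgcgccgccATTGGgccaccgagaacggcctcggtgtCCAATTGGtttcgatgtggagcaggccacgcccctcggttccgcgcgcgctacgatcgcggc
Hmgcs1 holds the sterol element once and CCAAT at 2 places, Idi1 CCAAT at 2 places and Fasn at 3, of which 2 overlap. In windows of 250 bases before the start, CCAAT on either strand stood in 14 of the 18 promoters found for 15 of the sterol enzymes (77.8%) and in 11120 of all 32851 promoters (33.8%). TCACNCCAC on either strand stood in 1 of the 18 (5.56%) and in 346 of all (1.05%). Both are descriptions of letters in a window, and 5 enzymes, among them Sqle, were not matched.

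Genes that control sterol levels differed in both directions. Of 17 measured, 9 were higher and 4 lower on MF, with a median difference of 0.75. Insig1, which holds SREBP back in the endoplasmic reticulum and is itself an SREBP target, read 4.15 on MF and 0.81 on CF, a 10.1-fold difference. The related Insig2 went the other way by both of its probes, at 2.32 against 4.57, 4.78-fold lower on MF. Abcg5 and Abcg8, which form the transporter that puts sterols into bile, were 4.31-fold and 2.26-fold lower on MF, whereas Abca1, which exports sterols to apolipoproteins, was 1.73-fold higher. Srebf2, the gene of SREBP2, was 1.69-fold higher and Stard4 1.84-fold higher, each by 2 probes. Npc1l1, the sterol uptake transporter of enterocytes, was above background on MF alone, at -1.17 and at least 19.7-fold higher. On the male arrays Insig1 read 2.15 on MM and 1.25 on CM, while Insig2 and Abcg5 read 3.60 against 3.47 and 2.35 against 2.32.

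Fatty acid synthesis was the next list of this kind. Of 22 members, all measured, 13 were higher and 2 lower on MF, with a median of 0.90. Fatty acid synthase (Fasn) read -0.36 on MF and -3.53 on CF, a 9.01-fold difference. ATP citrate lyase (Acly), which supplies acetyl-CoA, read 6.27 and 3.20, an 8.44-fold difference. The desaturase Scd2 was 7.57-fold higher at 5.87 against 2.95, and acetyl-CoA carboxylase 1 (Acaca) 5.49-fold higher at 4.26 against 1.81, by both of its probes. Srebf1, the gene of SREBP1, was 5.54-fold higher at 0.79 against -1.68, and the elongase Elovl6 3.98-fold higher. The carboxylase of the mitochondrial surface, Acacb, was 1.52-fold lower and the elongase Elovl5 1.84-fold lower. The male arrays gave a median of 0.31 for the list, and the adult liver desaturase Scd1 went the other way there, at 0.52 on MM and 2.94 on CM against 4.53 on MF and 3.64 on CF.

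Genes that burn fatty acids were not shifted together. Of 25 measured members of the oxidation list, 6 were higher and 4 lower on MF with a median of -0.07. Genes with a strong signal tended to be higher on MF, and with that trend over brightness removed 5 were higher and 8 lower, with a median of -0.39. The 3 genes of the list that carry fatty acids into mitochondria as carnitine esters were lower, with Cpt1a at 3.76 on MF and 5.54 on CF (3.44-fold lower), Cpt2 1.82-fold lower and the carrier Slc25a20 2.12-fold lower. Both probes of Cpt1a and both of Cpt2 were lower. The thiolases Acaa2 and Acaa1b were 2.49-fold and 3.23-fold higher, and Bdh1, which makes the ketone body hydroxybutyrate, was 3.02-fold higher by all 3 probes at 6.67 against 5.08. On the male arrays the list median was 0.49, and Cpt1a read 5.45 on MM and 5.10 on CM.

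PPAR alpha targets and lipid droplet genes were mostly lower on MF. Of 20 measured, 2 were higher and 12 lower, with a median of -0.76. G0s2, an inhibitor of the lipase of lipid droplets, read 1.2 on MF and 3.66 on CF, 5.49-fold lower. The fatty acid hydroxylases Cyp4a31, Cyp4a14 and Cyp4a10 were 4.46-fold, 2.61-fold and 2.11-fold lower, with all 3 probes lower for Cyp4a31 and for Cyp4a10. These near-identical genes of 1 cluster may share probe signal, so they are not separate observations. Cidea, a protein of the droplet surface, was 3.81-fold lower, at -1.30 against 0.63. Plin4, a droplet coat protein that heart and skeletal muscle also express, was 2.65-fold lower. Pdk4, which shuts off glucose oxidation, was 1.99-fold lower at 3.23 against 4.23. Ppara itself read 3.51 and 3.40 by its brightest probe, and its other probes passed once in each direction. In males the list median was 0.36, with Cyp4a31 at 7.14 on MM and 5.90 on CM and Pdk4 at 0.97 and 2.69.

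**Figure D4:**
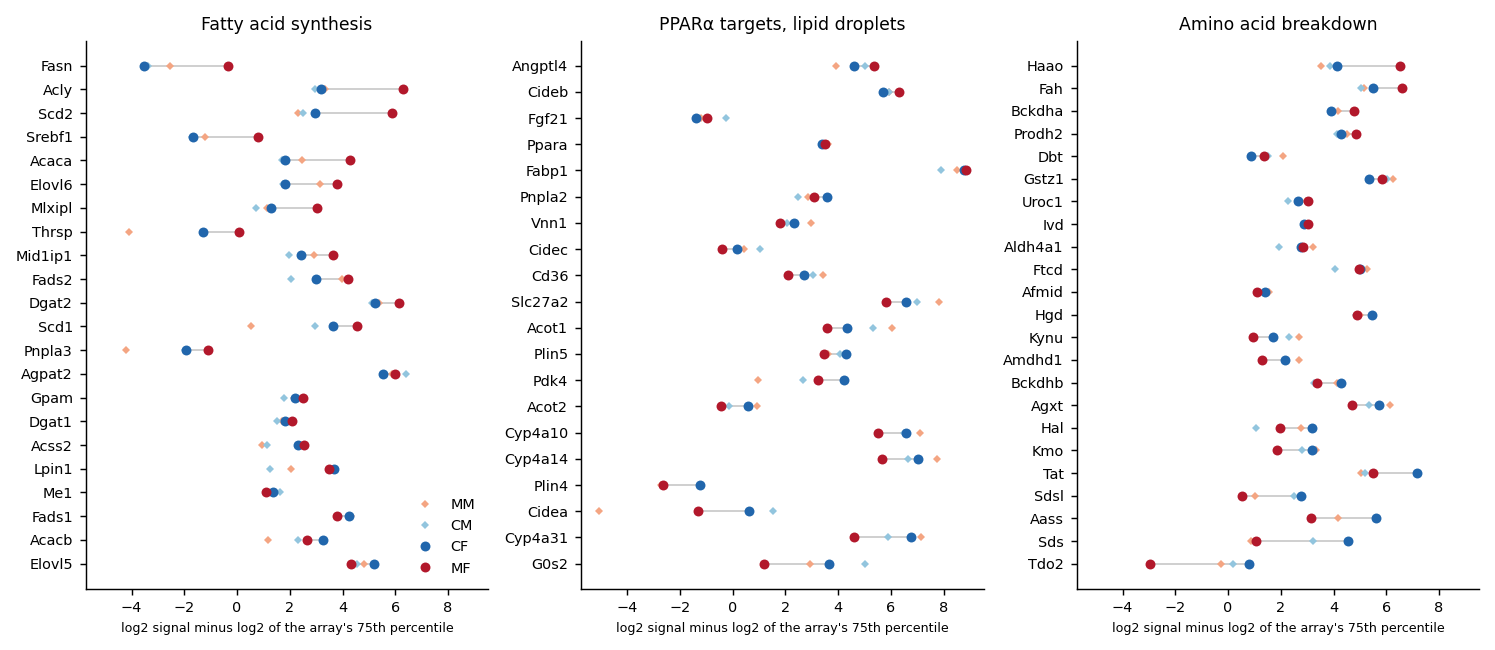
Log2 signal (horizontal axis, relative to the 75th percentile of the array) of the measured genes of fatty acid synthesis, of PPAR alpha targets and lipid droplets, and of amino acid breakdown, each panel ordered from the highest to the lowest difference. Circles are MF and CF, joined by a line, and diamonds are MM and CM. Fasn and Acly lie far to the right on MF, and Tdo2 and Sds far to the right on CF.

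Lipoprotein genes differed little as a group, with 5 of 18 measured members higher and 2 lower on MF and a median of 0.30. Apoa5, which lowers plasma triglycerides, was the largest, at 0.13 on MF and 2.54 on CF, 5.32-fold lower. Apom was 3.22-fold higher at 8.63 against 6.94, Apoc2, the cofactor of lipoprotein lipase, 2.64-fold higher at 9.34 against 7.93, and Apoh 2.0-fold higher. Apoa4, which gut and liver both make, was 2.84-fold higher on MF at 4.81 against 3.30, and read 6.10 on MM and 2.51 on CM. Apoa2, counted among the 2 lower members, read 9.56 on MF and 10.15 on CF by its brightest probe, but that spot was saturated on MF, so no direction can be read from it. Its other probe, at 10.10 against 8.87, differed by 1.23. Apoa1, Apob, Apoe and the transfer protein Mttp were within 1.5-fold. Of 17 measured genes of bile acid synthesis and transport, 1 was higher and 7 lower, with a median of -0.31. The rate-limiting Cyp7a1 read 3.94 on MF and 3.98 on CF. Cyp8b1, which sets the share of cholic acid, was 2.44-fold lower at 3.22 against 4.51, and Amacr 2.23-fold lower. The bile acid receptor gene Nr1h4 was 1.64-fold lower, its target Nr0b2 1.84-fold lower and the conjugating enzyme Baat 1.77-fold lower. Slc10a1, which takes up bile acids from blood, was 1.52-fold higher, just past the threshold, and differed by -0.21 under quantile normalization and by -0.014 with the trend over brightness removed.

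Of 23 measured glycolysis genes, 12 were higher and 2 lower on MF, with a median of 0.60. With the trend over brightness removed, 9 were higher and 4 lower, with a median of 0.28. Liver phosphofructokinase (Pfkl) was 3.09-fold higher, the liver pyruvate kinase gene Pklr 2.23-fold and the enolase Eno1 3.26-fold by a probe rich in C and T. The 2 lower members, Eno3 (7.24-fold) and Ldhb (2.39-fold), encode the isoforms that heart muscle expresses. Of 21 genes of gluconeogenesis and glycogen, 4 were higher and 5 lower, with a median of -0.11. Glucose-6-phosphatase (G6pc) read 8.43 on MF, 7.06 on CF, 4.66 on MM and 8.18 on CM, so it was 2.58-fold higher in the female pair. The carboxykinase Pck1 read 8.60, 8.02, 6.06 and 7.36 on the same arrays. Pyruvate carboxylase (Pcx) was 3.35-fold higher on MF, and Ppp1r3c, which targets a phosphatase to glycogen, 4.74-fold higher at 0.75 against -1.5, with 0.81 on MM and -1.77 on CM. The aminotransferases Got1 and Tat were 3.57-fold and 3.22-fold lower.

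Genes of the urea cycle and of amino acid breakdown leaned lower on MF, and those of methionine and one-carbon metabolism did not. In the urea cycle list 1 of 10 measured members was higher and 4 lower, with a median of -0.45. In the order of the cycle, Cps1 read 6.46 on MF and 7.03 on CF, Otc 3.68 and 3.28, Ass1 7.25 and 7.43, Asl 4.71 and 6.10 and Arg1 6.22 and 7.50. Asl and Arg1, the last steps, were 2.62-fold and 2.42-fold lower, and the ornithine carrier Slc25a15 4.28-fold lower at 0.62 against 2.72. Of 23 genes that break down amino acids, 3 were higher and 11 lower, with a median of -0.56. Tryptophan dioxygenase (Tdo2), a glucocorticoid-induced enzyme, read -2.97 on MF and 0.78 on CF, 13.4-fold lower. Serine dehydratase (Sds) was 11.3-fold lower at 1.05 against 4.55, and its relative Sdsl 4.70-fold lower. Aass, the first step of lysine breakdown, was 5.51-fold lower at 3.13 against 5.59. The exception among the largest was Haao of the kynurenine pathway, 5.19-fold higher at 6.51 against 4.13. On the male arrays Sds read 0.89 on MM and 3.24 on CM and Aass 4.18 and 5.62, in the same direction, while Tdo2 read -0.29 and 0.20. In the methionine and one-carbon list, 3 of 22 measured members (13.6%) were higher and 5 (22.7%) lower (median 0.03), against 16.6% and 20.9% of all measured genes. Mat1a, the liver S-adenosylmethionine synthetase, was 2.36-fold lower, Mthfd2 3.60-fold higher and Pemt 2.52-fold higher by all 3 probes.

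Of 19 measured secreted proteins of hepatocytes, 8 were higher and 0 lower on MF, with a median of 0.42. These are bright genes, and with the trend over brightness removed 4 were higher and 5 lower, with a median of -0.20. Serpina6, which carries corticosteroids in plasma, was 3.08-fold higher at 0.80 against -0.82, by both probes. The inter-alpha-trypsin inhibitor chains Itih2 and Itih3 were 2.77-fold and 2.57-fold higher, vitronectin (Vtn) 2.30-fold and angiotensinogen (Agt) 1.95-fold. Alpha-fetoprotein (Afp), the albumin of the fetus, read 9.46 on MF and 8.70 on CF. Its spot was saturated on MF, so it was at least 1.70-fold higher. Among coagulation factors 4 of 19 were higher and 2 lower, with a median of 0.21. The plasma inhibitors Serpinf2 and Serpind1 were 4.40-fold and 4.25-fold higher, factor XI (F11) 3.12-fold and protein C (Proc) 2.42-fold. Factor IX (F9) and protein S (Pros1) were 2.22-fold and 2.50-fold lower. The 3 fibrinogen chains differed by 0.15, 0.24 and 0.47. Of 29 acute phase and complement genes, 9 were higher and 5 lower (median 0.24). Saa2 was 8.95-fold lower at -5.01 against -1.85, Orm1 2.20-fold and Orm2 2.07-fold lower, whereas Lbp was 2.29-fold, Crp 2.16-fold and the complement chain C8g 3.61-fold higher. The other probe of C8g differed by 0.43.

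Regulators of liver identity were spread around 0. Of 21 measured transcription factors, 5 were higher and 6 lower, with a median of -0.14. Foxa3 read 3.76 on MF and 1.44 on CF, 4.97-fold higher, and Cebpa, needed for the metabolic genes of newborn liver, 4.75 and 2.73, 4.04-fold higher. The xenobiotic receptor gene Nr1i2 was 1.89-fold lower. Foxa2 was 1.78-fold lower by its brightest probe, and its other probe differed by -0.07. Of 24 measured cytochromes P450, 5 were higher and 8 lower (median -0.09). Cyp2c39 was 8.01-fold higher at 2.77 against -0.23, and both probes of Cyp2c37 were higher, by 2.89-fold for the brightest. Cyp3a13 was 6.25-fold lower by its brightest probe, with both probes lower, and Cyp3a11 3.44-fold lower at 4.68 against 6.46. Cyp1a1 was above background on CF alone. Between MM and CM the median of the list was 0.77. Conjugation enzymes leaned higher, 14 of 33 against 4 lower with a median of 0.31. Glutathione transferases were 11 of the higher members, Mgst1 not counted. Gsta2 was 11.3-fold higher at -0.01 against -3.51, Gsta1 7.78-fold at -2.29 against -5.25 and Gstp1 3.75-fold at 7.31 against 5.4 by both probes. Gsta1 and Gsta2 are near-identical and their probes may share signal. The level of Gsta1 on CF lay near -5.48, the lowest signal of a probe well above background there. The males ran the same way for this pair, with Gsta2 at -0.86 on MM and -3.09 on CM. Nnmt, which methylates nicotinamide, was 5.60-fold lower by its brightest probe and lower by both.

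Iron genes were centred on -0.06, with 2 of 17 measured members higher and 5 lower. Hepcidin (Hamp), the liver hormone that blocks iron uptake from the gut, read 4.25 on MF and 6.33 on CF, 4.24-fold lower, with 5.74 on MM and 5.13 on CM. Its relative Hamp2 was 3.66-fold lower and Ireb2, an iron sensor, 2.85-fold lower. Id1, induced with hepcidin by BMP signals, was 1.82-fold lower, and Tmprss6, a protease that dampens those signals, 1.65-fold higher. The 2 ferritin chains Fth1 and Ftl1 differed by 0.44 and 0.38.

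In the growth axis 7 of 22 measured genes were higher and 0 lower on MF, with a median of 0.21. Fetal growth depends on Igf2, which read 5.13 on MF and 3.24 on CF, 3.71-fold higher, and 5.28 on MM and 6.11 on CM. Igf1 was within 1.5-fold, at 2.66 and 3.05 by its brightest probe, and 1 other of its 5 probes passed in each direction. The insulin receptor substrate Irs2 was 3.40-fold higher, Igfbp7 2.89-fold, Socs3 2.75-fold, Cish 2.20-fold and Socs2 1.95-fold by all 3 probes. The last 3 are cytokine and growth hormone feedback genes. Igfbp1 read 9.22 and 9.41, and the growth hormone receptor Ghr 2.21 and 2.40. Of 20 measured imprinted genes, 7 were higher and 1 lower (median 0.38). The growth inhibitor Phlda2 was 8.66-fold higher at -0.06 against -3.18, and the cell cycle inhibitor Cdkn1c 3.86-fold higher at 4.11 against 2.16. On the male arrays Phlda2 read -0.76 and -0.13, and Cdkn1c 2.0 and 2.69, so CF was the lowest array for Phlda2. Mirg was 3.02-fold higher on MF by its brightest probe, and its other probe differed by 0.37. Dlk1 was 1.95-fold higher on MF and Peg3 1.82-fold lower, with both probes of each in the same direction. H19, read by 7 probes, had 4 probes higher and 0 lower, while its brightest one, saturated on MF, read 9.59 and 9.68.

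Immediate early genes, which respond within minutes to growth factors, stress and handling of tissue, were higher on MF. Of 24 measured, 16 were higher and 3 lower, with a median of 0.93 against -0.02 between MM and CM. Fosb read 0.12 on MF and -3.38 on CF, an 11.3-fold difference, with -2.85 on MM and -1.63 on CM. Atf3, a stress-induced repressor, was 6.53-fold higher at 0.74 against -1.97, Nr4a2 4.21-fold by both probes, Egr1 3.56-fold and Nr4a1 3.50-fold. Myc was 3.09-fold higher at 3.87 against 2.24. Fosl1 was above background on MF alone, at least 10.5-fold higher. Interferon-stimulated genes were also higher on MF, 14 of 27 and 0 lower, with a median of 0.60 against -0.23 in males. The chemokine gene Cxcl10 was 7.81-fold higher at 2.37 against -0.59, Oasl1 3.79-fold at 2.31 against 0.39, and Isg15 3.11-fold by both probes at 6.93 against 5.29.

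Other stress programmes were split. Of 24 genes of the unfolded protein and amino acid stress response, 6 were higher and 5 lower (median -0.06). The serine synthesis enzymes Psat1 and Phgdh were 5.17-fold and 3.31-fold higher, each by 2 probes, and the factor Atf5 2.99-fold, while Manf was 1.86-fold lower. Of 19 heat shock genes, 3 were higher and 5 lower (median -0.15). The crystallin Cryab and Hspb8, both abundant in heart, were 4.11-fold and 2.83-fold lower on MF, and Hsp90ab1 was 2.83-fold higher by a probe rich in C and T. Metallothionein and antioxidant genes had 5 of 21 higher and 0 lower (median 0.25). Gsr, which regenerates glutathione, was 4.58-fold higher by its brightest probe and Mt1 1.94-fold at 10.58 against 9.62. The other probe of Gsr differed by 0.39. Clock genes split, 5 of 16 higher and 6 lower (median -0.02), with the repressor Nfil3 2.73-fold and Bhlhe40 2.51-fold higher and Dbp, which Nfil3 opposes at shared sites, 2.14-fold lower.

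Proliferation genes had shares of lower members near the 20.9% of all measured genes. Of 39 measured genes of mitosis, 6 were higher and 11 (28.2%) lower on MF (median -0.29). The kinetochore gene Ndc80 was 2.74-fold lower, the kinesin Kif2c 2.67-fold lower by both probes and Cenpe 2.21-fold lower, whereas the condensin Ncapd2 was 3.07-fold and Bub1b 2.31-fold higher. Of 33 genes of DNA replication, 2 were higher and 8 (24.2%) lower (median -0.27). Gins1 was 2.50-fold lower, Gmnn 2.15-fold and the reductase subunit Rrm2 2.02-fold. Oxidative phosphorylation had 8 of 55 higher and 5 lower (median 0.08), and the proteasome 4 of 30 higher and 6 lower (median -0.23). By their brightest probes Sdhc was 2.54-fold higher and Uqcrb 2.14-fold lower. Other probes differed by 0.28 for Sdhc and by -0.79 and -0.55 for Uqcrb. With the trend over brightness removed, oxidative phosphorylation had 3 higher and 15 lower (median -0.21) and the proteasome 1 higher and 10 lower (median -0.46), against a median of 0.02 over all genes.

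Genes of blood cells in the newborn liver were read by lineage. Of 19 globin and haem genes, 3 were higher and 4 lower on MF (median -0.05), and of 23 erythroid regulators and membrane genes 4 were higher and 5 lower (median -0.22). With the trend over brightness removed, the globin and haem list had 1 higher and 8 lower (median -0.54) and the erythroid list 2 and 5 (median -0.31). The adult globins Hba-a1, Hba-a2, Hbb-b1 and Hbb-b2 were saturated on MF and give only bounds there, so that Hbb-b1, counted among the lower members, has no direction. Alas1, the first haem step in hepatocytes, was 2.25-fold lower at 3.76 against 4.93, and its erythroid counterpart Alas2 was 1.62-fold higher, but differed by -0.10 under quantile normalization. The red cell anion exchanger Slc4a1 was 1.79-fold higher, but differed by -0.32 under normexp background correction with quantile normalization. Neutrophil granule genes were higher on MF, 13 of 19 with 1 lower and a median of 0.98, against -0.08 between MM and CM. The granule protein Ngp read 8.62 on MF and 6.16 on CF, 5.53-fold higher, with 6.58 on MM and 6.44 on CM. Elastase (Elane) was 3.85-fold higher by a probe rich in C and T, Retnlg 3.24-fold, lactoferrin (Ltf) 2.41-fold and Lcn2 2.17-fold. Macrophage genes were likewise higher, 11 of 19 with 2 lower and a median of 0.64. Csf1r, the receptor for the macrophage growth factor, was 3.71-fold higher at 6.96 against 5.07 by a probe rich in C and T, and its other probe differed by 0.99. Lyz2 was 3.28-fold and C1qc 2.56-fold higher. The scavenger receptors Msr1 and Mrc1 were 2.24-fold and 1.71-fold lower. Megakaryocyte genes had 4 of 16 higher and 0 lower (median 0.19), and lymphoid genes 5 of 19 higher and 3 lower (median -0.01).

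Other cells of the liver were not shifted together. Endothelial genes had 1 of 20 higher and 4 lower (median -0.27), with Emcn 2.64-fold and Fcgr2b 2.23-fold lower. Of 22 collagen and matrix genes, 4 were higher and 2 lower (median 0.11), with Postn 2.94-fold lower. Genes of stellate and smooth muscle cells had 7 of 13 higher and 2 lower (median 0.63). The smooth muscle actin Actg2, which is abundant in gut wall, was 4.36-fold higher at 0.56 against -1.57, and calponin (Cnn1) 2.74-fold higher. The bile duct list had 5 of 11 higher and 1 lower (median 0.35). Its largest members, Anxa13 (11.7-fold), Epcam (4.33-fold) and Cftr (3.44-fold), are also expressed by intestinal epithelium. The duct genes Krt7 and Sox9 were within 1.5-fold.

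Few members of the lists of further organs were measured. Among 5 lung genes measured 1 was higher and 2 lower, among 8 kidney genes 2 and 2, among 8 of skin 2 and 0, among 9 of brain and nerve 5 and 0 (median 0.63), and among 5 of adrenal and gonad 1 and 1. Of 13 lung genes another 5 were above background on MF alone and 0 on CF alone, against 10.9% and 3.07% of all genes seen on at least 1 of the arrays. The kidney list had 3 on MF alone and 0 on CF alone, the skin list 4 and 1, and the adrenal and gonad list 2 and 0. Of the brain and nerve list 1 was on MF alone and 2 on CF alone. Single members stood far out. Sprr1a, a cornified envelope gene, was 35.0-fold higher on MF at 4.85 against -0.28, and the neuronal RNA binding gene Elavl4 8.54-fold higher at 1.99 against -1.11.

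The 5 lowest differences over all measured genes were Myl2, Actc1, Myl3, Mybpc3 and the unnamed probe beside Myh7. Heart genes below background on MF, such as Tnni3 and Mb, were outside this ranking. The 5 highest were a lincRNA read by a probe at chr5:123583751-123583810 with 8.68, Prap1 with 7.21 (3.42 against -3.79), Otof with 6.47 (7.44 against 0.97), a lincRNA read at chr15:8479156-8479215 with 6.45 and Dmbt1 with 6.40. Prap1 and Dmbt1 are genes of gut epithelium that the intestine list did not hold. The other probes of the chr5 lincRNA differed by 4.22 and -0.93, and the second probe of the chr15 lincRNA differed by 0.35. On the chr15 lincRNA the array that stood apart was CF, at -0.77 against 5.68 on MF, 5.84 on MM and 6.03 on CM.

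A stricter set was formed by genes with several measured probes that all passed 1.5-fold in one direction. Of 5182 genes with several measured probes, 210 had all of them higher and 425 all lower, and among the 1958 that passed by the brightest probe 196 had another probe past 1.5-fold in the opposite direction. The highest by the brightest probe were Slc45a3 (4.37), Lst1 (4.14), E130304I02Rik (4.13), a lincRNA read at chr14:33972317-33972376 (4.08), Aqp8 (4.06), a lincRNA read at chr17:39985629-39985688 (3.90), a lincRNA read at chr12:73862399-73862458 (3.57), Lgals4 (3.53), Pmvk (3.44) and Hcn2 (3.43). The lowest were Fabp3 (-6.60), Tmem8b (-5.82), Fbxl22 (-4.42), Tsga10 (-3.89), Wfikkn2 (-2.81), Cyp3a13 (-2.64), Art3 (-2.62), Clip4 (-2.54) and Slc16a5 (-2.53), besides a lincRNA that is not reported here. Fabp3, the fatty acid binding protein of heart muscle, read -2.78 on MF and 3.82 on CF, 97.1-fold higher on CF, with a difference of -7.13 by its other probe. On the male arrays Fabp3 read -2.45 on MM and -1.42 on CM, so CF stood apart.

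Probe sequences are shown for 4 of the genes at the top because their paired probes differ in a run of C and T. Each line gives 30 of the 60 bases of a probe, 5′ to 3′, with every window of 5 bases that holds only C or T, and at least 3 C, in capitals, and positions are on mm9.
E130304I02Rik, chr7:36587932-36587991, plus: TTCCCTCTCtTTCCCCCTTtttgCCCCTTC
E130304I02Rik, chr7:36587036-36587095, minus: gttactttctaagggaaccgaataagccta
Slc45a3, chr1:133878803-133878862, plus: agTCTCCCaCCCCCCacttgtttcaggaaa
Slc45a3, chr1:133879481-133879540, plus: tatgtgataaatcagagtataatgtttatg
Lst1, chr17:35323892-35323951, minus: gggCTCCTCCTCCTgcttgtcatcatcctg
Lst1, chr17:35322041-35322100, minus: ctatggtcatctagtaaagtctggTTCCCC
Aqp8, chr7:130606210-130606269, plus: cattgagaatagtccgaatactgggCTCCT
Aqp8, chr7:130611453-130611512, plus: cccaaagatcttgCTTCCTCagCTCCCaat
The first probe of E130304I02Rik, with 17 such windows, was 17.6-fold higher on MF and its second, with 0, was 1.95-fold higher. For Slc45a3, 4 windows went with 20.7-fold and 0 with 1.67-fold, and for Lst1 7 windows went with 17.7-fold and 2 with 2.59-fold. For Aqp8, a water channel, the probes with 1 and 3 windows were 17.8-fold and 16.6-fold higher. Its brightest probe was above background on all 4 arrays. Probes with at least 4 windows read 11.6% of all measured genes, 30.3% of the 452 genes over 4-fold higher on MF and 13.2% of the 212 over 4-fold lower. Of the 50 measured genes highest on MF relative to CF, 25 were read by such a probe. What these runs do to the signal was not tested.

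**Figure D5:**
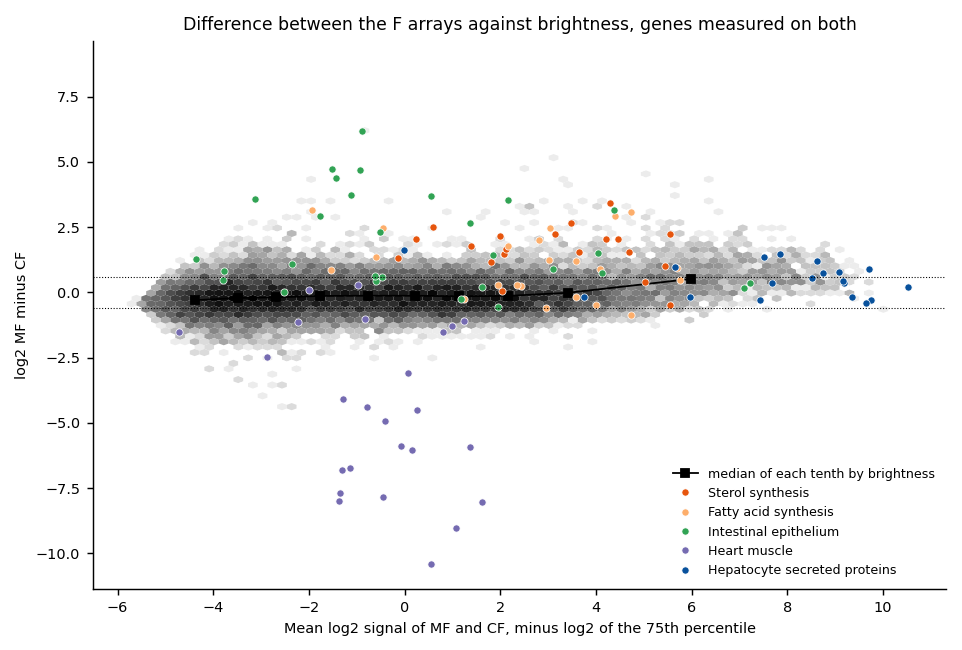
Difference (log2 MF minus CF, vertical axis) of the measured genes against their mean log2 signal on the 2 arrays (horizontal axis, relative to the 75th percentile), with darker cells holding more genes on a log scale. Coloured points are members of 5 lists, black squares are medians of 10 groups of equal size by brightness, and dotted lines are 1.5-fold. The squares run from -0.30 in the dimmest group to 0.52 in the brightest.

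The difference also moved with brightness. In the dimmest of 10 groups of equal size the median difference was -0.30, with 6.39% higher and 31% lower on MF. In the ninth group it was -0.01, and in the brightest 0.52, with 45.9% higher and 5.75% lower. Counts of higher members in lists of bright genes, such as secreted proteins, stand against this background. With the trend over brightness removed, the median of sterol synthesis was 1.85, fatty acid synthesis 0.90, immediate early genes 1.05, interferon response 0.69, neutrophil genes 0.61 and PPAR alpha targets -0.85, while hepatocyte secreted proteins went from 0.42 to -0.20, glycolysis from 0.60 to 0.28 and the urea cycle from -0.45 to -0.97. Apolipoproteins went from 0.30 to -0.06, coagulation factors from 0.21 to -0.24 and oxidative phosphorylation from 0.08 to -0.21, so their directions depend on this trend.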

How the data were processed

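Total RNA of whole liver was prepared with TRIzol and RNeasy columns, labelled with Cy3 and hybridised by the authors to 1-colour Agilent SurePrint G3 Mouse GE arrays with probes of 60 bases placed on mm9. Per the file headers, the deposited spot intensity is the processed signal of Agilent Feature Extraction 10.7.3.1, with a background surface subtracted and a detrending factor divided out within each array and no normalization between arrays. The deposited value table equals these signals at each of the 59305 non-control spots of every array, within a relative tolerance of 1e-05.

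Spots with a non-uniformity or population outlier flag on MF or CF were left out, and each signal was divided by the 75th percentile of its array before log2 was taken. Spots of a probe were averaged, and a gene was given the values of its probe with the highest mean of MF and CF. A gene below background on 1 array has a bound only. The bound is set against the lowest signal of probes well above background on that array, or the probe's own signal there if higher. The software's saturation flag marks further bounds. Counts past 1.5-fold carry no p-value because each side has 1 array, and this limits how precise any value can be. All 4 arrays lie on 1 slide, with groups in different positions. Whether arrays of a group came from separate animals or pools is not given in the sources used here.

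The genes and the 51 gene lists were chosen with earlier results of these data known. Of 1143 list symbols with a probe, 1142 are in RefSeq. From each list the text names up to 6 members with the largest difference, or more where the list has a pathway order. Over all measured genes it names the 10 highest and 10 lowest with several probes past 1.5-fold in one direction. It also names the 5 highest and 5 lowest of any kind among the measured genes. All other list members named, such as Npc1l1, Abcg8, Scd1, Pdk4, Pck1, Fosl1 and Nkx2-5, were chosen after their values were seen. Some list members are not reported here by name or in the plots by gene, and list counts and medians include them.

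Alternatives were other scalings, normexp background correction (limma 3.58.1 in R 4.3.3, offset 50), other filters on dim or flagged spots, the mean over probes, a 2-fold threshold, and removal of probes rich in C and T or of trends with GC content, array position or brightness. Removal of the trend with brightness was chosen after seeing the data. The procedure was run on simulated data with known changes, to check the code. That simulation had less noise between spots than these arrays, no trend with brightness and no spread between livers. It does not measure how reliable the calls made here are. Python 3.11.15, numpy 2.4.6 and pandas 2.3.3 were used.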

Additional observations from a re-analysis of the deposited data

Results flagged for a closer look

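Among the genes named here, several differed strongly in one direction between the female arrays and in the other between the male arrays (over 2 on the log2 scale in females and over 1 in males). This rule was not applied to all measured genes, and many of the named genes were chosen for a large female difference. With 1 array a side in each sex, the difference between the sexes was not tested. The intestinal gene Vil1 differed by 4.38 in females (MF minus CF) and by -1.24 in males (MM minus CM). The immediate early gene Fosb differed by 3.49 and -1.22, and the fatty acid hydroxylase gene Cyp4a31 by -2.16 and 1.24. Otof differed by 6.47 and -1.67, Hcn2 by 3.43 and -2.0, Lst1 by 4.14 and -1.31, and the lincRNA read on chromosome 12 by 3.57 and -1.35. For Lst1, Hcn2, Cyp4a31 and the chromosome 12 lincRNA the values are those of a brightest probe rich in C and T. The second probe of Lst1 differed by 1.37 in females and by 0.37 in males, the same direction in both. That of Hcn2 differed by 0.91 and -1.77, and that of the lincRNA by 0.74 and -0.87. Other probes of Cyp4a31 differed by -2.15 and -2.28 in females and by 1.39 and 0.93 in males.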

How the results depend on the processing

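No paired analysis was possible because each group has 1 array. Of 48 alternative counts of genes, 40 stayed within 1.5 times the reported count. Without scaling between arrays the median of all genes was 0.29, 7109 genes were higher and 1691 lower on MF, and 80.8% of those past 1.5-fold were higher, against 44.2% as reported. With the trend over brightness removed, that share was 55.9%. Without the filter on dim probes 16210 genes passed, 6853 higher and 9357 lower. At 2-fold 3494 passed, 1863 higher and 1631 lower. Of 704 alternative list medians, 604 moved by less than the spot spread of 0.302 and 0 changed sign where the reported median was past 1.5-fold. Without scaling the medians were 2.12 for sterol synthesis, 1.30 for fatty acid synthesis, 1.69 for the intestine list and -4.12 for the heart list. Limited to genes above background on all 4 arrays the intestine median was 0.84 and the heart median -4.91. Without the filter on dim probes they were 2.42 and -5.56. The heart median was -3.90 with normexp and -4.91 without probes rich in C and T. Among 251 named genes, 622 of 3222 alternative values moved by more than the spot spread and another 9 turned the direction. Those moved were 251 without scaling, 159 with normexp, 94 with quantile normalization and 70 with the brightness trend removed. With quantile normalization Alas2 differed by -0.10 and Slc10a1 by -0.21. With normexp Slc10a1 differed by -0.21, Slc4a1 by -0.32, Tm7sf2 by -0.32 and Apoa2, saturated on MF, by 0.39. Apoa2 also differed by 0.32 as the mean over probes and by 1.23 without probes rich in C and T, and Slc10a1 by -0.014 with the brightness trend removed. The cause was not tested.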
